A study of Homo sapiens with 6 samples.

Results

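Cadherins and other cell adhesion molecules were followed in Rh30, an established cell line from a fusion-positive rhabdomyosarcoma, a childhood soft tissue tumour with features of skeletal muscle that is driven by the PAX3-FOXO1 fusion protein. The set comprised the 10 rows of the expression table whose symbol was CDH2, CDH4, CDH11, CDH13, CDH15, NCAM1, MCAM, L1CAM, ALCAM or CD44, out of 35268 named genes. Polyadenylated RNA was sequenced from cells exposed for 24 hours to DMSO, the vehicle, or to 1 µM of a drug dissolved in it, with 3 libraries in each group. The drug, YK in the column names of the deposited table and with its full code name in the plots, is a small molecule that acts against transcription factors of the ETS family. Both groups were Rh30, so the measurements describe 1 cell line, which carries the fusion gene in both. The labels do not say that the 3 libraries of a group came from separate cultures, and p-values therefore measure only the spread between these libraries. The comparison asks how the ETS inhibitor affects expression in these cells, and MCAM bears on it because earlier studies that the authors cite placed it downstream of ETS1 in this tumour type.

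Classical cadherins are transmembrane proteins that bind the same cadherin on a neighbouring cell in a calcium-dependent way, and their cytoplasmic tails are tied to actin through catenins. The immunoglobulin-family adhesion molecules bind like or unlike partners without calcium, and CD44 binds hyaluronan in the extracellular matrix. In the muscle lineage CDH2 and CDH15 join myoblasts before they fuse, and NCAM1 is carried by myoblasts and is used as a marker of rhabdomyosarcoma cells in the clinic.

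The values are normalized counts, meaning whole reads multiplied by a factor of their library, and the libraries held between 16724650 and 24677433 reads on named genes. The muscle identity of the cells was plain in the marker genes. MYOD1, a master regulator of muscle, had a mean of 37118 ± 2368 normalized counts in DMSO (SD, n = 3), and MYOG, DES and PAX3 were also present in every library, whereas MYF5 had reads in 1 library only. Of the markers of other cell types, ERG (endothelium), CDH1 (epithelium) and PTPRC (leukocytes) had no reads in DMSO, but others of the same lists did. The 6 markers of each list summed to 260.5 to 340.4 normalized counts in DMSO for endothelium, led by TEK with a mean of 232, to 139.9 to 148 for epithelium, led by EPCAM with 55.8, and to 6.30 to 13.99 for leukocytes. The library that differed most was DMSO replicate 1, with a mean correlation across genes of 0.989 with the rest, while the other 5 had 0.992 or 0.993. Mitochondrial genes took 6.05% of its reads and 4.74% to 5.03% of the reads elsewhere. In a bulk library, fewer cells expressing a gene and less RNA of it per cell cannot be told apart.

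The 10 genes spanned the whole range from abundant to almost silent, and one cadherin dominated. To compare genes, normalized counts were divided by the kilobases of annotated exon of each gene. CDH15, or M-cadherin, the cadherin of muscle, reached 2953 normalized counts per kb over the 6 libraries, with a range of 2524 to 3262, and its mean count exceeded that of 99.55% of named genes. L1CAM followed at 319.9 per kb with a range of 292 to 346, and NCAM1 at 318 with a range of 296 to 349. These neighbours overlapped and have no order between them. MCAM stood at 277 per kb with a range of 250.4 to 292, its highest library lying just below the lowest of L1CAM. CDH11 had 196 per kb, CDH13 63.1 and CDH2 39.6, and none of these 3 genes overlapped its neighbours in the order. CDH4 at 2.63 per kb and ALCAM at 1.95 overlapped each other, and CD44 came last at 0.077. The order in the middle rests on the length used. Per kb of the canonical transcript, an alternative added after the data had been examined, NCAM1 (694 per kb) and MCAM (617) came next after CDH15 and overlapped, L1CAM (452) came after them, and CDH13 (88.3) overlapped CDH2 (84.6), while CDH15 stayed first with 4789 and CD44 last.

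**Figure D1:**
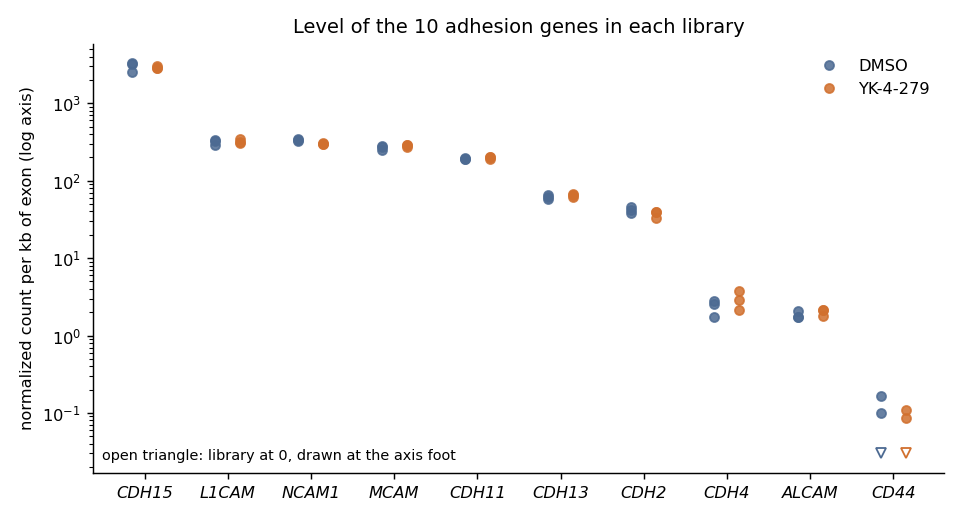
Normalized count per kb of annotated exon (log axis) of each of the 10 genes, one point per library, with the DMSO (blue) and drug-treated (orange) libraries side by side. CDH15 lies between 2524 and 3262 in all 6 libraries, CDH4 and ALCAM lie between 1.73 and 3.76, and CD44 has no reads in 1 library of each group.

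CDH15 therefore made up most of the signal of the 5 cadherins among the members, with or without the drug. It accounted for 90.8% ± 1.52 of the summed per-kb level of the 5 cadherins in DMSO and 90.6% ± 0.545 with the drug (SD, n = 3), against 5.97% and 6.16% for CDH11 and 1.29% and 1.16% for CDH2. The sum itself was 3290 ± 395 in DMSO and 3220 ± 110 per kb with the drug, and the groups overlapped. Cadherins outside the members are not in this sum, among them CLSTN1 (901 per kb in DMSO) and PCDH7 (471.5).

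None of the members tested passed the threshold on drug treatment. CD44 was left out for its low counts, and of the other 9, whose means were 10 normalized counts or more, 6 had a higher mean log2 value with the drug and 3 a lower one, and 0 reached an adjusted p-value under 0.05 in limma, where 3.41% of all 13930 genes tested did. On the reads edgeR called 0 of the 9, with 3.34% of all genes called, and DESeq2 called 0 of the 7 to which it gave an adjusted p (all but CDH4 and ALCAM), with 5.40% called of the 11769 genes that received one. At an unadjusted p under 0.05 the count was 1 of 9 with each of the 3 tools, against 18.7% of all genes in limma. The median log2 fold change of the 9 was 0.03, beside -0.01 over all genes, and their median absolute change was 0.08, beside 0.11. The 2 groups of libraries were fully separated for 1 of the 9, NCAM1, where 26.0% of all genes tested were separated. A p that misses the threshold does not show that a gene was unchanged, so the intervals below give the range of change that these libraries leave for each gene.

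CDH15 (hg38, chr16:89171748-89195492, plus strand) had 11728, 15161 and 14786 normalized counts in DMSO replicates 1, 2 and 3 and 14181, 13237 and 13251 in the drug-treated replicates. The DMSO libraries lay on both sides of all drug-treated libraries because replicate 1 was the lowest of the 6 and replicates 2 and 3 the highest. Drug against DMSO, the log2 fold change was -0.03 (standard error 0.08, limma adjusted p = 0.898), and its 95% interval corresponds to a difference of -13.3% to 11.2%. Without DMSO replicate 1 the log2 fold change was -0.14 (standard error 0.04) and the gene was called lower (limma adjusted p = 0.0106). In that fit 13.1% of all genes tested were called. MYOG, the transcription factor of differentiating myoblasts, was also lowest in DMSO replicate 1, at 11115 normalized counts against 15556 and 14758 in DMSO replicates 2 and 3 and 15984, 16587 and 15558 with the drug. MYOD1 and DES were also lowest in DMSO replicate 1. FOXO1 was highest there, at 2336 normalized counts against 1849 and 1887 in the other DMSO libraries. PAX3 was highest there among the DMSO libraries, at 1744. Of the 5 muscle tumour markers tested, 0 were called in limma, edgeR or DESeq2, where 3.41%, 3.34% and 5.40% of genes were. An unadjusted p under 0.05 in limma was seen for 3, beside 18.7% of all genes. They were MYOG (log2 fold change 0.23, limma adjusted p = 0.224), DES, an intermediate filament of muscle (0.14, limma adjusted p = 0.255), and FOXO1 (-0.24, limma adjusted p = 0.128). FOXO1 was called lower without DMSO replicate 1 (-0.14, limma adjusted p = 0.0471), where 13.1% of all genes were called. It was also called lower with GC content and length taken out (-0.23, limma adjusted p = 0.0173), where 11.5% were. PAX3 had a log2 fold change of 0.07 (limma adjusted p = 0.616), and 0.11 without DMSO replicate 1 (limma adjusted p = 0.143). These gene counts do not tell the PAX3-FOXO1 fusion transcript from the normal PAX3 and FOXO1 genes. The part of DMSO replicate 1 in the CDH15 result beyond these values was not tested.

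CDH11 (chr16:64943753-65126112, minus strand), a cadherin of mesenchymal cells, had coefficients of variation of 1.26% in DMSO and 3.07% with the drug. Its normalized counts were 2615, 2557 and 2561 in DMSO and 2538, 2691 and 2660.3 with the drug. The lowest and the highest of the 6 libraries were both drug-treated. Its log2 fold change was 0.03 (standard error 0.06, limma adjusted p = 0.831), with a 95% interval of -0.09 to 0.15 on that scale.

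CDH13 (chr16:82626965-83800640, plus strand), or T-cadherin, which is held in the membrane by a lipid anchor and lacks the cytoplasmic tail of the other cadherins, had 730.05, 637 and 685 normalized counts in DMSO and 671, 737 and 715 with the drug. The groups overlapped across most of their range, and the log2 fold change was 0.05 (standard error 0.08, limma adjusted p = 0.776), with a 95% interval of -7.98% to 16.6%. With a library left out it ran from 3e-04, without DMSO replicate 2, to 0.0991, without DMSO replicate 1. Exons of CDH13-AS2, on the opposite strand, overlap 21.4% of the exon bases of CDH13, and the sources used here do not say whether the counting used strand.

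CDH2 (chr18:27932879-28177946, minus strand), or N-cadherin, the cadherin of neural and mesenchymal cells that also joins myoblasts, had 392, 328 and 357 normalized counts in DMSO and 335, 341 and 285 with the drug. The lowest library was drug-treated and the highest was DMSO replicate 1, but DMSO replicate 2 lay below 2 of the drug-treated libraries. On the log2 scale the difference was -0.16 (standard error 0.10, limma adjusted p = 0.424), with a 95% interval of -23.6% to 4.25%. With a library left out it ran from -0.23, without DMSO replicate 2, to -0.08, without drug-treated replicate 3.

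CDH4 (chr20:61252261-61940617, plus strand), or R-cadherin, rested on few reads, namely 15, 13 and 25 in DMSO and 33, 20 and 16 with the drug. The sums were 53 reads in DMSO (exact Poisson 95% interval 39.7 to 69.3) and 69 with the drug (53.7 to 87.3), intervals which overlap and cover counting error only. The log2 difference was 0.30 (standard error 0.31, limma adjusted p = 0.65), with a 95% interval of -23.1% to 96.5%. With a library left out it ran from 0.11, without DMSO replicate 2 and also without drug-treated replicate 1, to 0.50, without drug-treated replicate 3.

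**Figure D2:**
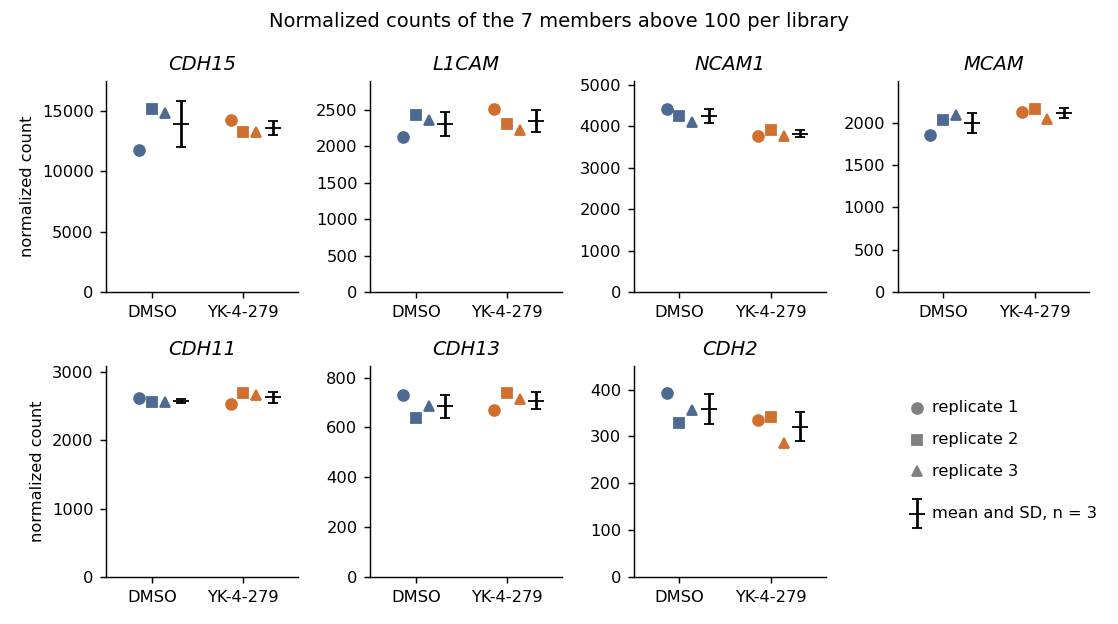
Normalized counts of the 7 members with more than 100 per library, on axes that start at 0, with one symbol per replicate number and the mean and SD of 3 libraries beside each group. NCAM1 is the panel in which the groups are separated, and in the CDH15 panel DMSO replicate 1 lies at 11728, below the other 5 libraries.

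Among the immunoglobulin-family members NCAM1 (chr11:112961275-113278436, plus strand), the neural cell adhesion molecule, came nearest to a change. It had 4431, 4249.8 and 4099.6 normalized counts in DMSO and 3763, 3925 and 3779 with the drug. Every drug-treated library lay below every DMSO library, and the lowest DMSO value was close to the highest drug-treated one. Its log2 fold change was -0.16 (standard error 0.06), or 0.898 times the DMSO level, with a 95% interval of -17.5% to -2.35%, and the p of 0.0157 became 0.156 after limma's adjustment over all genes. When a smooth dependence on GC content and length was taken out of each library, NCAM1 was called lower (log2 fold change -0.15, limma adjusted p = 0.0161), in a fit that called 11.5% of all genes. Without DMSO replicate 1 it was called as well (log2 fold change -0.13, limma adjusted p = 0.0322), among the 13.1% called there. The value was below 0 under all 17 alternatives, from -0.18 to -0.08, and the adjusted p in them ran from 0.0161 to 0.459.

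MCAM (chr11:119308529-119321521, minus strand), also known as CD146, is an adhesion receptor of endothelium, pericytes and melanoma. It had 1859, 2037 and 2094 normalized counts in DMSO and 2123, 2167 and 2047 with the drug. DMSO held the lowest 2 libraries, while DMSO replicate 3 lay among the drug-treated ones. The difference on the log2 scale was 0.08 (standard error 0.06, limma adjusted p = 0.525), with a 95% interval of -3.84% to 16.6%. Under all 17 alternatives the value stayed above 0, between 0.03 and 0.13.

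Because the drug is directed at ETS factors, the 250 bases before the RefSeq start of MCAM are shown, and beside them those of ALCAM, a relative of MCAM expressed at 1.95 per kb against 277. Both are on GRCh38.p14 and read in the direction of the gene. The MCAM stretch (chr11:119317131-119317380, minus strand) lies inside the annotated gene, between exons, because longer MCAM transcripts start further upstream. The ALCAM stretch (chr3:105366659-105366908, plus strand) ends just before the first base of the annotated gene.
MCAM: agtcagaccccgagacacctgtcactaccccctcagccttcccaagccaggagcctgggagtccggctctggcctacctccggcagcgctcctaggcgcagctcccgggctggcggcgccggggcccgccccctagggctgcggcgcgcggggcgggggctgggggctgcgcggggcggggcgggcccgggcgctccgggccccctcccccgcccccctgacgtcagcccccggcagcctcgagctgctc
ALCAM: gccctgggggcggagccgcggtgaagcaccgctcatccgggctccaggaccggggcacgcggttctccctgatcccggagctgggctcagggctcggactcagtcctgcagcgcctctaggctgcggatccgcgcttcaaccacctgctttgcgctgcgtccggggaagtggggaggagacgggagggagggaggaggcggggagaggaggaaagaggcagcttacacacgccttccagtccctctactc

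Both stretches are rich in G and C, at 79.6% in MCAM and 68.8% in ALCAM, and hold 26 and 20 CpG dinucleotides. Neither carries a capital letter because none of the motifs searched on both strands occurred in them, namely CCGGAAGT (letters of an ETS site), CAGCTG (an E-box) and GTAAACA (a forkhead site). RefSeq windows of 250 bases before to 50 bases after the start were at hand for 6 of the 10 genes, 9 windows in all. CDH11, CDH13, CDH15 and NCAM1 had no window. CCGGAAGT and GTAAACA were in 0 of the 9, and they were in 4.14% and 3.42% of 35116 windows of all genes. CAGCTG was in 3 of the 9, 1 of CDH4 and 2 overlapping ones of L1CAM, and in 17.9% of all windows. These are exact matches of letters in short windows. Variants of the sites were not counted, and the matches say nothing of binding.

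L1CAM (chrX:153861514-153886173, minus strand), the founding member of a family of neuronal adhesion molecules, had 2123, 2426 and 2365 normalized counts in DMSO and 2515, 2306 and 2215 with the drug. The groups overlapped over most of their range. The log2 difference was 0.03 (standard error 0.07, limma adjusted p = 0.883) with a 95% interval of -8.41% to 13.1%, and its sign turned in 3 of 17 alternatives.

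ALCAM (chr3:105366909-105576900, plus strand), or CD166, had 10, 15 and 15 reads in DMSO and 18, 14 and 13 with the drug. The summed reads were 40 (exact Poisson 95% interval 28.6 to 54.5) and 45 (32.8 to 60.2). The 95% interval of the difference was -32.5% to 73.6% (log2 fold change 0.11, standard error 0.32, limma adjusted p = 0.883).

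CD44 (chr11:35138882-35232402, plus strand), the hyaluronan receptor, was practically absent from the libraries and was not tested. It had 0, 1 and 2 reads in DMSO and 1, 1 and 0 with the drug, among 124033363 reads in all. The sums of 3 and 2 reads have exact Poisson 95% intervals of 0.619 to 8.77 and 0.242 to 7.22. No fold is given for it, since both groups stayed at or under 3 reads.

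The make-up of the immunoglobulin-family members is given as shares of the summed per-kb level of NCAM1, MCAM, L1CAM and ALCAM. NCAM1 held 39.1%, 35.4% and 34.6% in the DMSO replicates and 31.9%, 33.6% and 33.8% in the drug-treated replicates, and MCAM held 28.0%, 29.0% and 30.3% in DMSO and 30.7%, 31.7% and 31.3% with the drug. The groups were separated for these 2 shares, although the counts of MCAM itself overlapped, and a share of one gene moves with the levels of the others. Of all genes tested, 26.0% had normalized counts that did not overlap between the groups. L1CAM held 32.7% to 35.3% in DMSO and 34.5% to 37.2% with the drug, and ALCAM 0.187% to 0.221% and 0.206% to 0.231%, with overlapping groups for both. The shares were looked at after the values of the genes were known and were not tested, and their size rests on the exon lengths used. The summed level of the 4 genes was 923 ± 26.9 per kb in DMSO and 910.3 ± 26.7 with the drug (SD, n = 3), with overlapping groups.

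**Figure D3:**
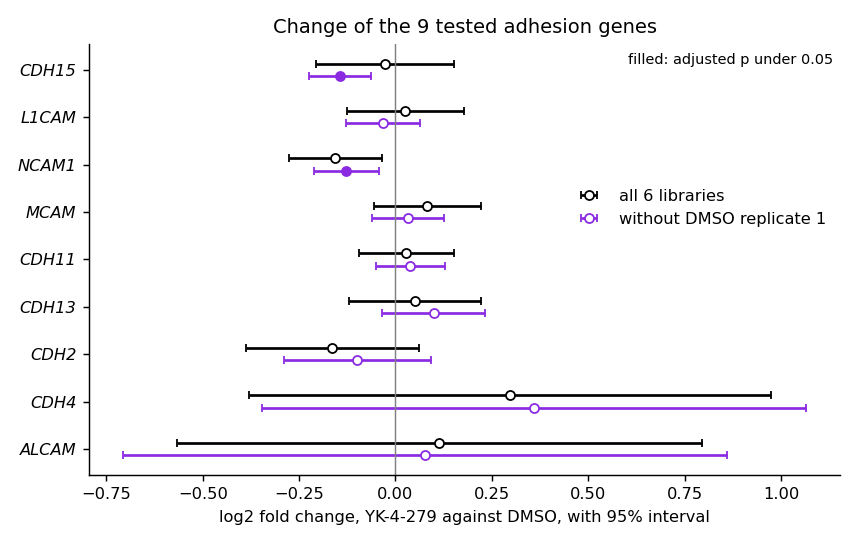
Log2 fold change of the 9 tested members, drug against DMSO, with 95% intervals from limma, for all 6 libraries (black) and without DMSO replicate 1 (violet), where filled points have an adjusted p under 0.05. With all libraries no point is filled, and without DMSO replicate 1 the points of CDH15 (-0.14) and NCAM1 (-0.13) are.

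Genes that work with the members were listed by function. Of 38 other cadherins listed, 23 were tested, and 5 rose while 0 fell, in limma, where 1.26% of all genes tested rose and 2.15% fell. Their median log2 fold change was 0.06. PCDH19, a protocadherin of the nervous system, had 47.9, 33.0 and 51.8 normalized counts in DMSO and 74.5, 76.1 and 83.0 with the drug. Its log2 fold change was 0.83 (standard error 0.20, limma adjusted p = 0.0381). PCDH10 had 69.3, 70.9 and 66.8 against 111, 112 and 118 (log2 fold change 0.71, standard error 0.14, limma adjusted p = 0.0152). In both protocadherins all drug-treated libraries were above all DMSO libraries.

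PCDH9 went from 523, 456 and 470.07 normalized counts to 766, 728 and 682 (log2 fold change 0.59, standard error 0.08, limma adjusted p = 0.00395). The other genes called were FAT4, a giant cadherin of planar polarity (0.35), and CELSR2, another cadherin of that system (0.35), with limma adjusted p of 0.0492 and 0.0442. They lie just past the threshold. PCDH7 had the highest mean of this list, 6083 ± 85.1 normalized counts in DMSO and 6873 ± 116 with the drug (SD, n = 3), and its log2 fold change was 0.18 (limma adjusted p = 0.0829). PCDH7 was called higher without DMSO replicate 1 (0.19, limma adjusted p = 0.000504) and with GC content and length taken out (0.17, limma adjusted p = 0.00527). edgeR called 5 genes of the list (3.34% of all genes), and DESeq2 called 6 of the 20 to which it gave an adjusted p (5.40% of all such genes). The count without drug-treated replicate 1, 2 or 3 was 0, 0 or 1, without DMSO replicate 3 it was 2, and without DMSO replicate 1 it was 8. In the same order those fits called 19, 23, 46, 242 and 1823 of the 13930 genes tested, the last being 13.1%. Without DMSO replicate 2 the count was 4, with PCDH19 no longer called. It was 1 without the variance trend, and 3 with quantile normalization, without the filter on the mean and with a mean of at least 100. The log2 fold changes of the 5 genes were above 0 in all 6 fits that left out a library. The difference between these cadherins and the members was not tested.

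The calls of the remaining lists are read against all genes tested, of which 3.41% were called, 2.15% lower, and 18.7% had an unadjusted p under 0.05 in limma. Of 10 catenins and cadherin adaptors tested, 8 had a lower mean and 0 passed the threshold in limma or edgeR, or in DESeq2 among the 9 given an adjusted p, with 1 at an unadjusted p under 0.05 in limma and a median log2 fold change of -0.10. That 1 was CTNNB1, or beta-catenin, which links cadherins to the actin cytoskeleton and had the highest mean of the list, at 10642 ± 805 normalized counts in DMSO and 9310.3 ± 203 with the drug (log2 fold change -0.19, limma adjusted p = 0.109). All its drug-treated libraries were below its DMSO libraries. It was called lower without DMSO replicate 1 (log2 fold change -0.13, limma adjusted p = 0.0202) and with the dependence on GC content and length taken out (-0.15, limma adjusted p = 0.0167), fits that called 13.1% and 11.5% of all genes.

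Among 20 other immunoglobulin-family adhesion molecules tested, 1 (5%) fell and 0 rose, with a median log2 fold change of 0.03. With a library left out 0 to 2 were called, the 2 without DMSO replicate 1, where 13.1% of all genes were. DCC, the netrin receptor, went from 113, 106 and 124 normalized counts to 80.5, 69.5 and 75.0 (log2 fold change -0.60, standard error 0.14, limma adjusted p = 0.038), a call that was lost in DESeq2, with TMM scaling, without the variance trend and without the filter on the mean. NECTIN1, a nectin of adherens junctions with the highest mean of the list, had a log2 fold change of 0.03 (limma adjusted p = 0.805). Of 18 myoblast adhesion and fusion genes tested 1 (5.56%) fell, and 0 to 4 were called with a library left out. The 4 came without DMSO replicate 1, where 13.1% of all genes were called. The count was also 0 with quantile normalization and without the variance trend. The gene that fell was DOCK1, which activates Rac during fusion. It went from 2624, 2461 and 2485 normalized counts to 2113, 2189.6 and 2036 (log2 fold change -0.26, standard error 0.06, limma adjusted p = 0.0356), and the list's median was -0.10. JAM3, a junctional adhesion molecule with the highest mean there, had -0.04. MYMK, of the same list, had 0.76 (limma adjusted p = 0.0573), with every drug-treated library above every DMSO library. It was called higher without DMSO replicate 1 (0.70, limma adjusted p = 0.0375). MYMX had -0.22 (limma adjusted p = 0.111) and was called lower in the same fit (-0.24, limma adjusted p = 0.00344). With GC content and length taken out MYMX was called as well (-0.30, limma adjusted p = 0.00255). The calls of both DCC and DOCK1 held in 2 of the 6 fits that left out a library.

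In the last 2 lists limma called no gene with the settings used throughout, but some under alternatives. Of 19 ligands, partners and modifiers of the members tested, 12 had a lower mean and 0 passed in limma or edgeR, or in DESeq2 among the 17 given an adjusted p, with 4 at an unadjusted p under 0.05 in limma and a median of -0.09. Without DMSO replicate 1 the count was 4, and it was also 4 with the dependence on GC content and length taken out, in fits that called 13.1% and 11.5% of all genes, and without DMSO replicate 2 it was 1. FGFR4, a growth factor receptor that NCAM1 can bind and the most abundant of them, had 20119 ± 1096 normalized counts in DMSO and 18472 ± 656 with the drug (log2 fold change -0.12, limma adjusted p = 0.281). FGFR4 was called lower in those fits (-0.17, limma adjusted p = 0.00285, and -0.20, limma adjusted p = 0.00906). Of 10 junction repressors and mesenchymal regulators tested, 0 passed in limma or edgeR, or in DESeq2 among the 8 given an adjusted p, and 3 had an unadjusted p under 0.05 in limma, while 2 were called without DMSO replicate 1, 1 with GC content and length taken out and 1 with quantile normalization. The 2 were ZEB2, a transcriptional repressor of CDH1, which had a log2 fold change of 0.18 with all libraries and 0.26 without that one (limma adjusted p = 3.71e-05), and PRRX1, a mesenchymal homeobox factor, with -0.90 (limma adjusted p = 0.0761) and -0.96 (limma adjusted p = 0.025). ZEB2 was also the 1 called with GC content and length taken out (0.25, limma adjusted p = 0.00183). FN1, or fibronectin, with the highest mean of the list, had a log2 fold change of -0.06 (limma adjusted p = 0.63). Of the 4 fibroblast markers tested 1 was called, COL1A1, a collagen, which rose by 0.34 on the log2 scale (limma adjusted p = 0.0375) and kept its call in 2 of the 6 fits that left out a library. Among the fibroblast markers the log2 fold changes of the others were 0.27 for PDGFRA, 0.23 for LUM and -0.24 for THY1 (limma adjusted p of 0.25, 0.739 and 0.647). PDGFRA was called higher without DMSO replicate 1 (0.42, limma adjusted p = 0.000279) and with GC content and length taken out (0.32, limma adjusted p = 0.0365). The 6 fibroblast markers summed to between 999 and 1103 normalized counts in DMSO and between 1244 and 1332 with the drug. The leukocyte markers, of which only CD14 was tested (1.20, limma adjusted p = 0.14), summed to 27.2 to 30.02 with the drug, above the 6.30 to 13.99 in DMSO. With the drug the endothelial markers summed to 242.5 to 264 and the epithelial ones to 148 to 194, and 0 of the 4 tested in each list were called in limma or edgeR, or in DESeq2, which gave an adjusted p to 1 gene of each, with 1 in each at an unadjusted p under 0.05 in limma. The part of such markers in the adhesion results was not tested.

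**Figure D4:**
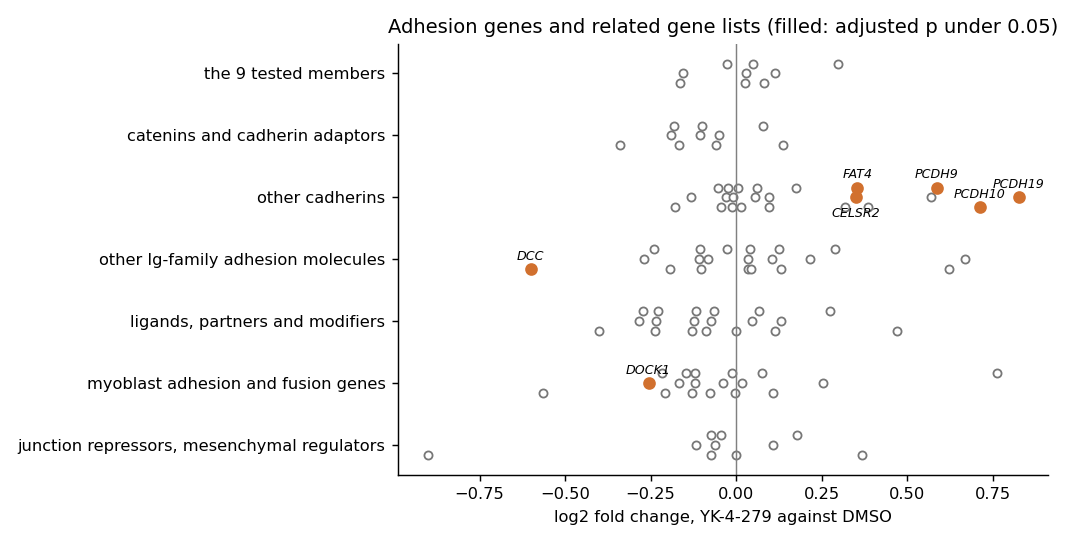
Log2 fold change, drug against DMSO, of every tested gene among the members and in 6 related lists, one point per gene, with filled points for an adjusted p under 0.05 in limma. The 5 filled points of the other cadherins lie between 0.35 and 0.83, DCC lies at -0.60 and DOCK1 at -0.26, and no member is filled.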

How the data were processed

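mRNA was sequenced from Rh30 cells, 3 libraries per group. The authors trimmed reads with BBDuk, aligned them to hg38 with STAR 2.7.9a and tested differences with DESeq2 (version 1.44.0 in the submitters' notes). The annotation and the strand setting are not given in the sources used here. The deposited table holds a normalized signal, that is, read counts scaled by 1 factor per library. Divided by it, 100% of values came within 0.01 of a whole number. The row without a name, with at most 6 reads per library, was left out.

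The main test was limma 3.58.1 (R 4.3.3) on log2(normalized count + 1), eBayes with trend, for 13930 genes with a mean of at least 10, two-sided, with Benjamini-Hochberg adjustment over all of them, so fold changes of low genes are understated. edgeR 4.0.16 and DESeq2 1.42.0 were run on the recovered reads as alternatives, after all tools had been tested on simulated data. Positions, exons, GC content and lengths are from GENCODE on hg38, and 98.4% of genes tested had GC and length. Members and lists were chosen with earlier results of these data known. Named genes were the members and, per list, the gene with the highest mean and up to 3 called genes with the largest change. FAT4, CELSR2, CLSTN1, MYMK, MYMX, ZEB2 and PRRX1 were named after their values were seen, as were the markers. Intervals for summed reads are exact Poisson and cover counting error only.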

Additional observations from a re-analysis of the deposited data

How the results depend on the processing

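The count of genes called among all 13930 was 475 (176 higher, 299 lower). It moved to 277 with quantile normalization (145 lower), to 33 without the variance trend (30 higher, 3 lower) and to 1605 with GC content and length trends removed (555 higher, 1050 lower). Leaving out each library in turn gave 19 to 1823 genes (15 to 644 higher, 4 to 1179 lower), the lowest without drug-treated replicate 1 and the highest without DMSO replicate 1. The count of members called was 0 except with the GC and length trends removed (1) and without DMSO replicate 1 (2), so leaving out a library gave 0 to 2. The median log2 fold change of the members moved to 0.0745 with quantile normalization and lay between 0.021 and 0.054 with a library left out. The sign turned for ALCAM (-0.10) and CDH15 (0.022) with quantile normalization and for L1CAM with the GC and length trends removed (-0.036). With a library left out, CDH15 ran from -0.14 to 0.041, above 0 without DMSO replicate 2 or 3 (0.041 and 0.023), and L1CAM from -0.032 to 0.066, below 0 without DMSO replicate 1 or drug-treated replicate 1 (-0.032 and -0.026). NCAM1 passed the threshold with the GC and length trends removed (-0.15) and without DMSO replicate 1 (-0.13). CDH2, CDH4, CDH11, CDH13, MCAM and NCAM1 kept their sign in every alternative run. Apart from the construction of each alternative, the cause of these moves was not tested.

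With the replicate block the count of genes was 180 (79 higher, 101 lower) and 0 members were called. Under the block 2 of the other cadherins were called, and neither DCC nor DOCK1. The labels do not say whether libraries with the same number were handled together. The correlations of same-numbered deviations were -0.0985, -0.0269 and -0.0267. With 3 libraries per group, such values cannot show whether the libraries were paired. Depth limits CDH4, ALCAM and CD44, whose sums were at most 69 reads in a group.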
